A study of Mus musculus with 4 samples.

Results

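Integrins are the cell-surface receptors that hold cells to extracellular matrix, each built from an alpha and a beta subunit, and laminins are the matrix proteins of basement membranes, each built from an alpha, a beta and a gamma chain. The genes described here are every row of the deposited TPM table whose symbol names an integrin alpha or beta subunit or a laminin chain. There were 37 of them among 22186 listed genes: 18 integrin alpha, 8 integrin beta and 11 laminin genes. RNA was measured in MC38, a mouse colon carcinoma cell line, stably carrying TetOn-CXCL14, a tetracycline-inducible construct for the secreted chemokine CXCL14. The 2 DOX cultures received 1 µg/mL doxycycline, an antibiotic that turns TetOn promoters on, and the 2 control cultures received an equal volume of PBS. All 4 carried the construct and were harvested after 72 h. No culture received doxycycline without the construct, so an effect of CXCL14 and an effect of the antibiotic cannot be told apart.

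An integrin subunit reaches the cell surface only when paired, so the choice of partners decides which matrix a cell can grip. The beta 1 subunit pairs with most alpha subunits and binds laminins, collagens and fibronectin; alpha v pairs with several beta subunits and binds proteins that carry an RGD tripeptide; the beta 2 subfamily belongs to leukocytes. Laminin chains assemble inside the cell, and the alpha chain carries the main integrin-binding site.

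Cxcl14, the induced gene, stood at 385 and 391 TPM in DOX cultures, against 27.3 and 29.2 TPM in control cultures, which fits the labels. TPM is a length-scaled share of all transcripts, so levels may be compared between genes; no read counts were used, and the depth of each library is unknown. Between 14330 and 14678 genes were above 0 in a library. The label calls the cells colon cancer cells, yet all 9 markers of colon epithelium were below 1 TPM in every library, with Cdh1, Krt19 and Cdx2 listed at 0 throughout. The series text calls the 2 samples of a group biological replicates, but nothing else says how the cultures were separated, so p-values measure only the spread between them. With so few libraries a two-sided exact permutation test reaches p = 0.33 at best, and the tests below lean on limma, which pools spread over genes.

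After doxycycline the summed laminin alpha chains fell below 1 TPM, Lamb1 and Lamb2 fell, and so did 8 of the 10 integrin alpha subunits that could be tested (of 18), while the abundant subunits Itgb1 and Lamc1 did not pass the test. Lama4, Itga8, Itgb8 and Itgb2 fell by more than 1 on the log2 scale, though Itgb8 and Itgb2 fell by 0.90 and 0.76 with the FPKM table and Itgb2 by 0.81 under quantile normalization. Itgad and Itgb5 rose. Of the 37 genes, 21 averaged 1 TPM or more in the 4 libraries and were tested on log2(TPM + 1). In limma with Benjamini-Hochberg adjustment over all 11359 genes tested, 14 of the 21 were lower and 2 higher at an adjusted p under 0.05. Across all genes tested, 35.4% were lower and 29.0% higher, 64.4% in all, so that doxycycline went with wide change and the share of subunits that rose was below the background. A fall of at least 1 on the log2 scale was called in 4 of the 21 and in 7.76% of all genes tested, and a rise of that size in 1 of the 21, Itgad, and in 3.48%. The median log2 fold change was -0.50 for the 21 subunits and -0.04 for all genes tested. Itga8, Lama4 and Itgad reached the mean of 1 TPM through 1 group only, so that they could hardly be tested without differing, and the other 18 had a mean of at least 1 TPM in both groups. In 15 of the 21 both DOX libraries lay below both control libraries, in 3 both lay above, and in 3 the groups overlapped, where 45.0% of all genes tested lay below and 37.7% above. Under quantile normalization, 9 of the 21 were lower and 2 higher. Itgb5 dropped out of the higher genes without DOX replicate 1, DOX replicate 2 or control replicate 2, which left 1. These are bulk cultures, so fewer cells that use a gene and less RNA per cell cannot be told apart.

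**Figure D1:**
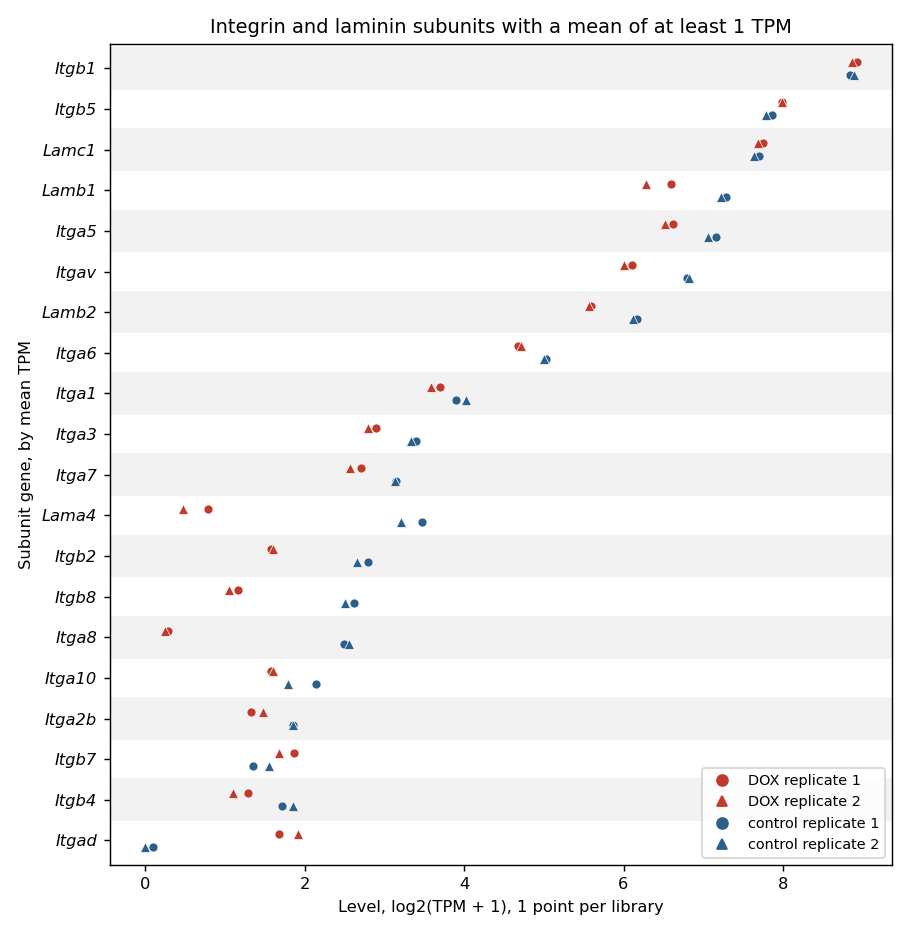
Level of 20 of the 21 tested subunit genes on the log2(TPM + 1) scale (horizontal axis), ordered by mean TPM (vertical axis), with 1 point per library, DOX in red above control in blue. Itgb1, Itgb5 and Lamc1 sit at the high end with close groups, while Lama4, Itga8 and Itgb8 show the DOX points far to the left of the control points.

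Start-site sequences are shown for a subunit with a large fall (Itga8) and for both chains of a common receptor pair, Itgav, which fell, and Itgb5, which rose slightly, beside the shared chain Itgb1. Each is the 250 bases before the RefSeq start in build GRCm38.p6, in the direction of the gene, with every CG dinucleotide in capitals: Itga8 at chr2:12301945-12302194 (minus strand), Itgav at chr2:83724147-83724396 (plus strand), Itgb1 at chr8:128685404-128685653 (plus strand) and Itgb5 at chr16:33829415-33829664 (plus strand).
Itga8: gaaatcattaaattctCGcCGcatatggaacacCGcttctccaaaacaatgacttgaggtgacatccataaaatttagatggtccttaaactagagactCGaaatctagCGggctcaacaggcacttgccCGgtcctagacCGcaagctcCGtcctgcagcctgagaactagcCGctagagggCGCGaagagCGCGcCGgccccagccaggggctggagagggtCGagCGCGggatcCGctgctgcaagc
Itgav: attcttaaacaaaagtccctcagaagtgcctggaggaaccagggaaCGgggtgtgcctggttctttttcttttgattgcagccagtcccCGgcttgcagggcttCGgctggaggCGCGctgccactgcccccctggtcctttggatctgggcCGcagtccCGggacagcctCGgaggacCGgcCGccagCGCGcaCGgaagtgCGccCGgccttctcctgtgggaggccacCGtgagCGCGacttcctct
Itgb1: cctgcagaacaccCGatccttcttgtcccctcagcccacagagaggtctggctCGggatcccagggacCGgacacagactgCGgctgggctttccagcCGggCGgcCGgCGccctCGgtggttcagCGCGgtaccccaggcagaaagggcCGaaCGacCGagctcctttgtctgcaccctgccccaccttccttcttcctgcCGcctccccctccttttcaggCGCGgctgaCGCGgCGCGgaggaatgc
Itgb5: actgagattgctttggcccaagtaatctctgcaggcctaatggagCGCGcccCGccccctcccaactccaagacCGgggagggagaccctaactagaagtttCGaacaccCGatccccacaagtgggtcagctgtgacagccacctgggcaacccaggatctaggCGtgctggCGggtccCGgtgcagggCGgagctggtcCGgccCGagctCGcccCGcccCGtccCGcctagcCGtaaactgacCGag
The windows of Itga8, Itgav and Itgb5 held 18 CG dinucleotides each and that of Itgb1 held 21, where the median over 32851 RefSeq windows was 6. The median over all subunit windows was 10. The windows shown were picked by gene and all were CG-dense, so they cannot relate CG content to change, and such a link was not tested. RefSeq windows were found for 23 of the 37 genes, 26 windows in all. On either strand, the AP-1 motif TGANTCA was found in 1 of the 26, that of Itgax, against 6.75% of all windows. The E-box CACGTG, the C/EBP-ATF element TGATGNAA and TATAAA were found in 0 of the 26, against 6.02%, 3.45% and 12.4% of all windows. Any of these letters could also lie outside such a window, and the start that these cells use was not measured.

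Among the 5 tested laminin genes, Lama4 changed most, and it was the only alpha chain tested. It reached the mean of 1 TPM through control cultures only, so that it could hardly be tested without a fall. Lama4, the alpha 4 chain, which is typical of vessel and mesenchymal basement membranes, was listed at 0.719 and 0.390 TPM in DOX cultures, against 10.1 and 8.25 TPM in control cultures. It was the one laminin alpha gene above 1 TPM in any library, and it was 16.5-fold lower by mean TPM in DOX cultures (log2 fold change -2.71, SE 0.16, limma adjusted p = 1e-06), and the log2 value was -1.73 with the FPKM table. The other alpha chains were below the level of testing. Lama5, the alpha 5 chain of most adult epithelial basement membranes, stood at 0.0248 and 0.0275 TPM in DOX cultures and at 0.204 and 0.154 TPM in control cultures. Lama3, a chain of epithelial anchoring laminin, stood at 0.0924 and 0.119 TPM in DOX cultures and at 0.256 and 0.171 TPM in control cultures. Both had their DOX libraries below their control libraries, as did 45.0% of all genes tested. At levels this low, without counts, that order carries little weight. Lama1 and Lama2 were at or below 0.175 TPM in every library, with overlapping groups. Of 5 fibroblast markers, the sum was 37.7 and 28.9 TPM in DOX cultures, against 353 and 361 TPM in control cultures, most of it Pdgfra, a growth factor receptor gene of mesenchymal cells. For the fibrillar collagen genes of that list, the groups overlapped (Col1a1) or DOX libraries lay higher (Col1a2). Col1a1 stood at 3.39 and 2.02 TPM in DOX cultures and at 2.43 and 2.14 TPM in control cultures, and Col1a2 at 0.250 and 0.104 TPM in DOX cultures and at 0.0778 and 0.0418 TPM in control cultures, while Lum and Fap were at or below 0.210 TPM in every library. The sum of 5 endothelial markers was 0.173 and 0.119 TPM in DOX cultures, against 0.818 and 0.627 TPM in control cultures, with Kdr at 0 throughout. Of these markers, Pecam1 and Cdh5 lay lower in DOX cultures, while Tek and Emcn overlapped. The part of either cell type in the falls of Lama4 and of Itga8, described below, was not tested. Summed over the 5 alpha chains, the level was 0.886 and 0.761 TPM in DOX cultures, against 10.6 and 8.67 TPM in control cultures. Lama4 made up a mean of 94.9% of the control sums, so the fall of the sum was mostly that of Lama4.

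The tested beta chains fell by less, and Lamc1 did not pass the test. Lamb1, the common beta chain, stood at 95.7 and 76.8 TPM in DOX cultures, against 156 and 148 TPM in control cultures (log2 fold change -0.82, SE 0.09, limma adjusted p = 6.3e-05). Lamb2, its relative in muscle, nerve and kidney membranes, stood at 47.2 and 46.2 TPM in DOX cultures, against 71.1 and 68.6 TPM in control cultures (log2 fold change -0.57, SE 0.06, limma adjusted p = 5.1e-05). Every DOX library of both genes lay below every control library, as for 45.0% of all genes tested. Lamc1, the gamma 1 chain found in most laminins, stood at 215 and 205 TPM in DOX cultures, against 207 and 198 TPM in control cultures. Its groups overlapped, with a log2 fold change of 0.05 and a 95% interval from -0.08 to 0.19. Lamb3, the beta partner of Lama3, stood at 0.121 and 0.338 TPM in DOX cultures and at 0.294 and 0.293 TPM in control cultures, and Lamc3 was at or below 0.0502 TPM in every library. Lama3 and Lamb3 were thus both far below Lamb1 and Lamc1 in every library.

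The balance of chains moved with these changes. The summed beta chains came to 66.5% and 60.2% of the Lamc1 level in DOX cultures, against 109.7% and 109.9% in control cultures. The summed alpha chains came to 0.412% and 0.371% of the Lamc1 level in DOX cultures, against 5.15% and 4.38% in control cultures. In both groups, then, Lamc1 and beta transcripts far exceeded alpha transcripts, by a wider margin after doxycycline. No group overlapped the other in these shares of summed TPM, for which 4 libraries allow no p below 0.33 by exact permutation.

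**Figure D2:**
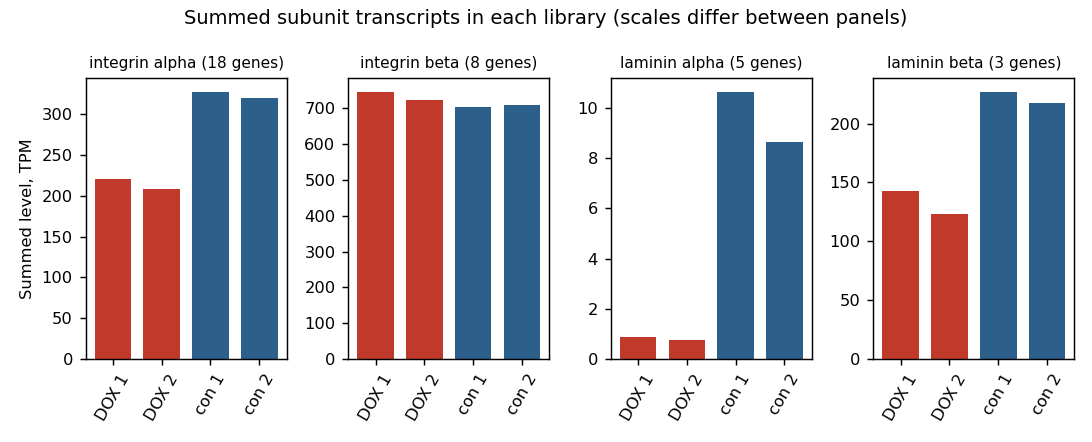
Summed TPM (vertical axis, starting at 0, a separate scale in each panel) of the integrin alpha, integrin beta, laminin alpha and laminin beta genes in each library, DOX bars in red to the left of control bars in blue. The laminin alpha sum is 0.886 and 0.761 TPM in DOX cultures and 10.6 and 8.67 TPM in control cultures, while the integrin beta sums are close, at 746 and 725 TPM in DOX cultures and 703 and 709 TPM in control cultures.

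Of the integrin beta subunits, Itgb1 was the most abundant member of either family, with rank 249 of all listed genes by mean TPM. Itgb1 stood at 486 and 465 TPM in DOX cultures, against 457 and 474 TPM in control cultures. The groups overlapped (log2 fold change 0.03, 95% interval -0.11 to 0.17, limma adjusted p = 0.69). Itgb5, a partner of alpha v that binds vitronectin, stood at 253 and 253 TPM in DOX cultures, against 231 and 220.1 TPM in control cultures. It rose by 0.17 on the log2 scale (SE 0.06, limma adjusted p = 0.032), a small step that was lost under quantile normalization (adjusted p = 0.15), without a variance trend (0.081) and on leaving out DOX replicate 1, DOX replicate 2 or control replicate 2 (0.13, 0.14 and 0.089).

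Among the rarer beta subunits, Itgb8 and Itgb4 fell, as did Itgb2, given with the leukocyte integrins. Itgb8, which with alpha v activates latent TGF-beta, stood at 1.23 and 1.07 TPM in DOX cultures, against 5.12 and 4.66 TPM in control cultures (log2 fold change -1.45, SE 0.14, limma adjusted p = 2.2e-05). Itgb4, the partner of alpha 6 in hemidesmosomes, stood at 1.45 and 1.14 TPM in DOX cultures, against 2.28 and 2.61 TPM in control cultures (log2 fold change -0.59, SE 0.16, limma adjusted p = 0.0098). DOX libraries lay below control libraries for both genes, as for 45.0% of all genes tested. The fall of Itgb4 missed the threshold without DOX replicate 2 (adjusted p = 0.058), without control replicate 2 (0.054) and under quantile normalization (0.21). Itgb3, the platelet and bone-cell partner of alpha v and alpha IIb, was listed at 0.0392 and 0 TPM in DOX cultures and at 0.448 and 0.211 TPM in control cultures. Itgb6, an epithelial partner of alpha v, was listed at 0 in all 4 libraries. Of the beta partners of alpha v, Itgb1 and Itgb5 therefore made up nearly all transcripts in both groups.

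Of the 18 integrin alpha subunits, 10 were tested, of which 8 were lower and 1 higher, beside 35.4% lower and 29.0% higher over all genes tested. Under quantile normalization 4 were lower and 1 higher. Itga5, the alpha subunit of the classical fibronectin receptor, stood at 97.7 and 90.9 TPM in DOX cultures, against 141 and 132 TPM in control cultures (log2 fold change -0.53, SE 0.07, limma adjusted p = 1e-04). Itgav stood at 68.2 and 63.5 TPM in DOX cultures, against 110.5 and 113 TPM in control cultures (log2 fold change -0.75, SE 0.06, limma adjusted p = 8.5e-06). These led the alpha subunits in every library, with 43.6% to 44.2% (Itga5) and 30.4% to 30.9% (Itgav) of all alpha TPM in DOX cultures, and 41.3% to 43.2% and 33.8% to 35.2% in control cultures. Itga8, which binds nephronectin and other RGD proteins together with beta 1 and marks mesenchymal and smooth muscle cells, stood at 0.215 and 0.186 TPM in DOX cultures, against 4.63 and 4.89 TPM in control cultures. It was 23.7-fold lower in mean TPM in DOX cultures (log2 fold change -2.26, SE 0.15, limma adjusted p = 2.2e-06). At so low a level the log2 value hangs on the pseudocount, and it was -4.02 with a pseudocount of 0.1 and -1.24 with the FPKM table. Itga2b, the platelet alpha IIb subunit, stood at 1.50 and 1.77 TPM in DOX cultures and at 2.61 and 2.62 TPM in control cultures (log2 fold change -0.46, SE 0.15, limma adjusted p = 0.023). That call was lost without DOX replicate 1 (adjusted p = 0.12), without control replicate 1 (0.062), without control replicate 2 (0.065) and under quantile normalization (0.55). Its beta partner Itgb3 was near 0, and 5 megakaryocyte and platelet markers, mostly the chemokine gene Ppbp, summed to 8.17 and 6.12 TPM in DOX cultures and 15.5 and 18.7 TPM in control cultures. Ppbp and Pf4 lay lower in DOX cultures. Gp1ba lay slightly higher, at 0.832 and 0.834 TPM in DOX cultures and 0.726 and 0.823 TPM in control cultures, and Gp9 was above 0 in DOX replicate 2 alone. The part of megakaryocytes or platelets in the fall of Itga2b was not tested.

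The laminin-binding alpha subunits fell together. Itga6, partner of beta 1 and beta 4, stood at 24.5 and 25.1 TPM in DOX cultures, against 31.6 and 31.1 TPM in control cultures (log2 fold change -0.33, SE 0.07, limma adjusted p = 0.0037). Itga3, whose product with beta 1 binds epithelial laminins, stood at 6.46 and 5.96 TPM in DOX cultures, against 9.57 and 9.08 TPM in control cultures (log2 fold change -0.52, SE 0.11, limma adjusted p = 0.0023). Itga7, the main laminin receptor subunit of muscle, stood at 5.55 and 4.91 TPM in DOX cultures, against 7.84 and 7.77 TPM in control cultures (log2 fold change -0.50, SE 0.11, limma adjusted p = 0.0039). In all 3 genes both DOX libraries lay below both control libraries, as they did for 45.0% of all genes tested. The sum of 5 skeletal muscle markers was 1.62 and 0.585 TPM in DOX cultures and 1.02 and 0.644 TPM in control cultures, overlapping, with Myod1 at 0 throughout. Under quantile normalization the falls of Itga3 and Itga7 missed the threshold (adjusted p = 0.075 and 0.13). Together these subunits came to 36.5 and 36.0 TPM in DOX cultures, against 49.1 and 48.0 TPM in control cultures.

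Collagen-binding alpha subunits were low, and Itga1 led them. Itga1, which prefers basement membrane collagen, stood at 12.0 and 11.04 TPM in DOX cultures, against 13.9 and 15.3 TPM in control cultures (log2 fold change -0.32, SE 0.10, limma adjusted p = 0.018). Its groups were close, and the call was lost without DOX replicate 2 (adjusted p = 0.11), without control replicate 2 (0.10), with no filter on low genes (0.056) and under quantile normalization (0.31). Itga10, a subunit of cartilage, stood at 1.98 and 2.04 TPM in DOX cultures and at 3.42 and 2.45 TPM in control cultures (log2 fold change -0.38, limma adjusted p = 0.069). It passed without control replicate 2 (adjusted p = 0.026) and without a variance trend (0.041). Itga2, a receptor subunit for fibrillar collagen, stood at 0.381 and 0.165 TPM in DOX cultures and at 1.07 and 1.10 TPM in control cultures, too low on average to be tested. With no filter it was lower (log2 fold change -0.72, limma adjusted p = 0.0059). Itga11, the fibroblast collagen receptor, was at or below 0.114 TPM in every library.

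Set against their shared partner, alpha transcripts thinned out. The 12 alpha subunits that can pair with beta 1 came to 44.7% and 43.9% of the Itgb1 level in DOX cultures, against 70.9% and 66.7% in control cultures, with no overlap. Itgav came to 9.23% and 8.84% of the summed Itgb1 and Itgb5 level in DOX cultures, against 16.1% and 16.2% in control cultures. In total, alpha subunits summed to 221 and 209 TPM in DOX cultures and 327 and 320 TPM in control cultures. Beta subunits summed to 746 and 725 TPM in DOX cultures and 703 and 709 TPM in control cultures. Alpha sums were thus lower and beta sums slightly higher in both DOX libraries, and the direction for beta turned under quantile normalization (log2 ratio -0.0108, against 0.0586 as deposited). These ratios are of transcripts, not of proteins at the surface.

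**Figure D3:**
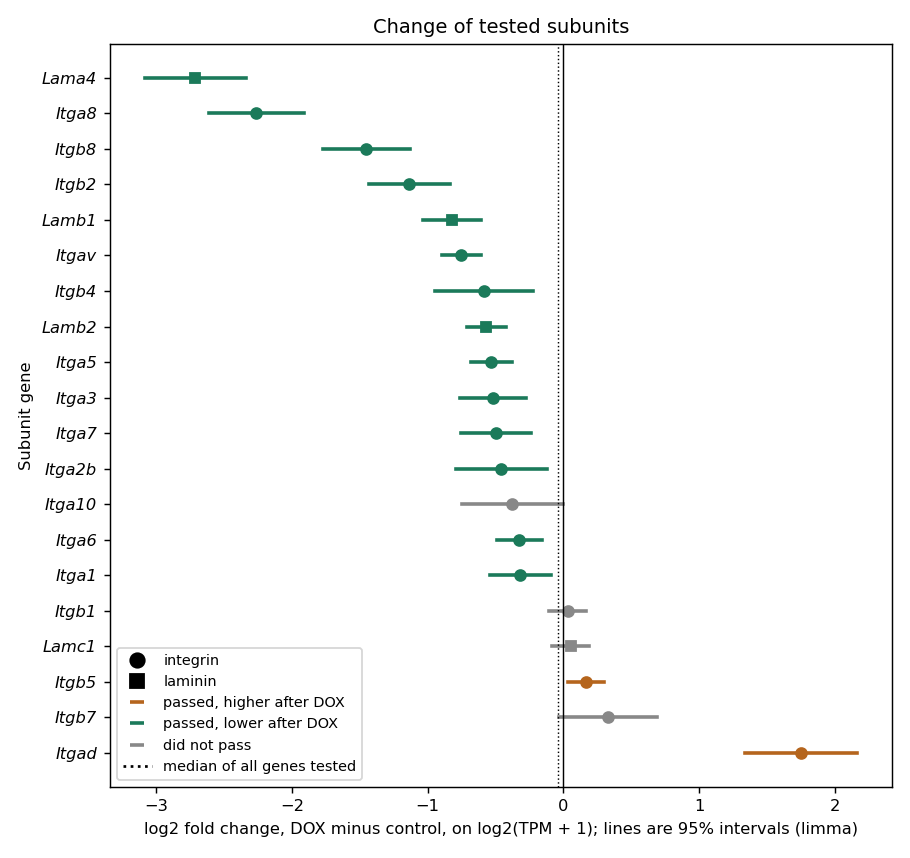
Log2 fold change of 20 of the 21 tested subunits, DOX minus control, on the log2(TPM + 1) scale (horizontal axis) with its 95% interval from limma, circles for integrins and squares for laminins, and a dotted line at the median of all genes tested. Lama4 and Itga8 lie farthest to the left, at -2.71 and -2.26, the intervals of Itgb1, Lamc1 and Itgb7 span 0, and Itgad lies at 1.75.

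Integrins of leukocytes moved in both directions. Itgb2, the beta subunit shared by the leukocyte integrins, stood at 1.98 and 2.05 TPM in DOX cultures, against 5.94 and 5.33 TPM in control cultures (log2 fold change -1.14, SE 0.13, limma adjusted p = 6.3e-05). Itgad, the alpha D subunit, which pairs with beta 2 and is known from macrophages, stood at 2.20 and 2.79 TPM in DOX cultures, against 0.0679 and 0 TPM in control cultures (log2 fold change 1.75, SE 0.18, limma adjusted p = 3.1e-05). The log2 value was 4.31 with a pseudocount of 0.1 and 0.83 with the FPKM table. In the listed values Itgad rose while the gene of its beta partner fell, and the Itgad value carries the overlap limit given below. The other alpha partners of beta 2 were lower still: Itgal was at or below 0.407 TPM and Itgam at or below 0.0698 TPM in every library, and Itgax was listed at 0 in all. Of 9 leukocyte markers, Laptm5, Cd52 and Cd3e were listed at 0 in all libraries, and the markers summed to 0.187 and 0.216 TPM in DOX cultures and 1.32 and 0.740 TPM in control cultures. Most of the control sums was Coro1a, at 1.16 and 0.490 TPM in control cultures, against 0 and 0.216 TPM in DOX cultures. Csf1r and Adgre1 also lay lower in DOX cultures, Ptprc overlapped, and Tyrobp was above 0 in DOX replicate 1 alone. The part of leukocytes in the fall of Itgb2 was not tested.

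The rise of Itgad stood beside that of a neighbour. In GENCODE M21, the exons of Itgad share 70 bases, or 1.55% of its exon bases, with Cox6a2, which lies on the opposite strand and encodes the muscle form of a cytochrome c oxidase subunit. Cox6a2 stood at 307 and 346 TPM in DOX cultures, against 16.8 and 10.9 TPM in control cultures (log2 fold change 4.49, SE 0.16, limma adjusted p = 5.4e-08). The sources used here do not say whether reads were counted by strand, and without strand reads from the 2 genes over those bases cannot be told apart. Itgad also shares 388 exon bases (8.60%) with 4931431B13Rik and 102 with Gm39091 on the opposite strand, and 330 (7.32%) with the pseudogene Gm17831 on its own strand, none of them listed in the table. The part of these genes in the rise of Itgad was not tested. Annotated exons of Itga8, Itgav and Itgb4 also overlap an opposite-strand RNA, and those of Itga1, Itga10 and Itgam a same-strand gene model, none of them listed in the table, so these values carry the same limit. The largest is that of Itgam, which shares 3450 bases (68.7% of its exon bases) with Gm49368, so its low level is uncertain. Among tested subunits the largest is that of Itga10, which shares 1739 bases (33.5%) with Gm42957. Transcripts of Itga6 and Itgb5 match those of Gm29397 and Gm38317 at 97% identity or more, in stretches of up to 326 and 343 bases. Reads from those stretches could be split.

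Itgb7, the beta subunit of lymphocyte homing receptors, stood at 2.66 and 2.21 TPM in DOX cultures and at 1.55 and 1.92 TPM in control cultures. Its log2 fold change of 0.33 had a 95% interval from -0.03 to 0.69 (limma adjusted p = 0.098), and it passed under quantile normalization (adjusted p = 0.0059) and without a variance trend (0.036). Its partners were nearly unlisted: Itga4 was at or below 0.0322 TPM in every library and Itgae at or below 0.467 TPM. Itga9, a relative of alpha 4, was above 0 in DOX replicate 2 alone, at 0.0209 TPM. In all, 16 of the 37 genes were below the mean of 1 TPM, 10 integrins and 6 laminins. Except for Itga2, no library of these 16 reached 0.5 TPM, and 8 of them were listed at 0 in at least 1 library.

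Tested genes for proteins that build basement membranes with laminin were mostly lower. Of 20 such genes, 9 were tested, of which 8 were lower and 0 higher (median log2 fold change -0.93). Beside these 8 of 9, 35.4% of all genes tested were lower. Ntn1, a laminin-related netrin, stood at 20.5 and 18.2 TPM in DOX cultures, against 81.4 and 77.5 TPM in control cultures (log2 fold change -1.99, limma adjusted p = 1e-07). Nid2, which links laminin to collagen IV, stood at 2.44 and 2.37 TPM in DOX cultures, against 7.60 and 6.53 TPM in control cultures (log2 fold change -1.24, limma adjusted p = 3.3e-05). Col4a1, a chain of the collagen IV network, stood at 71.4 and 64.6 TPM in DOX cultures, against 145 and 135 TPM in control cultures, and Col18a1, the precursor of endostatin, fell by 1.34 on the log2 scale. Agrin (Agrn) and perlecan (Hspg2), proteoglycans that bind laminin, fell by 0.86 and 0.43 on the log2 scale. The other common nidogen, Nid1, was below the level of testing.

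Other laminin receptors and the tetraspanins, membrane proteins that travel with integrins, went both ways. In this list 4 of 19 tested genes were higher and 11 lower (median log2 fold change -0.39), beside 29.0% higher and 35.4% lower over all genes tested. Cd9, a tetraspanin, stood at 272 and 243 TPM in DOX cultures, against 824 and 850.0 TPM in control cultures (log2 fold change -1.70, limma adjusted p = 1.2e-07). Cd151, the tetraspanin that binds laminin-binding integrins most tightly, fell by 0.44 on the log2 scale. The syndecans Sdc1, Sdc3 and Sdc4, heparan sulphate co-receptors, fell by 0.99, 1.05 and 0.97. The syndecan Sdc2 overlapped, at 194 and 167 TPM in DOX cultures and 175 and 187 TPM in control cultures (limma adjusted p = 0.95). Dag1, which encodes dystroglycan, the main non-integrin laminin receptor, fell by 0.39. Dst, a cytoskeletal linker of the plakin family, rose, with 138 and 147 TPM in DOX cultures, against 78.5 and 91.4 TPM in control cultures.

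Among other integrin ligands, 5 of 20 tested genes were higher and 11 lower (median log2 fold change -0.45), and 3 were higher without control replicate 2 or with no filter. Over all genes tested 29.0% were higher and 35.4% lower, so the higher genes were near that share. Fn1, the fibronectin gene and ligand of the Itga5 product, stood at 789 and 723 TPM in DOX cultures, against 1703 and 1674 TPM in control cultures (log2 fold change -1.16, limma adjusted p = 1.2e-06). Spp1, which encodes osteopontin, an RGD protein, stood at 289 and 218 TPM in DOX cultures, against 2971 and 3204 TPM in control cultures. Edil3, another RGD ligand, fell by 1.60 and Col6a1 by 1.87 on the log2 scale. Fibronectin and its receptor subunit were thus both lower in DOX cultures at the transcript level. Icam1, a ligand of beta 2 integrins, stood at 0.764 and 0.473 TPM in DOX cultures, against 3.46 and 3.89 TPM in control cultures. Its log2 fold change was -1.54, and from -2.42 to -0.86 in the alternatives. Icam1 and Postn, both counted as lower, reached the mean of 1 TPM through control cultures only, so they could hardly be tested without a fall. Vcam1, a ligand of alpha 4 and alpha D integrins, rose by 0.23 (limma adjusted p = 0.037). That call was lost with no filter (adjusted p = 0.099) and without a variance trend (0.077). The log2 fold change of Vcam1 was 0.14 without DOX replicate 1 and 0.15 without control replicate 2. The other ligand genes called higher were Ccn1, Adam9, Col5a1 and Thbs2. They rose by 0.56, 0.56, 0.34 and 0.33 on the log2 scale (limma adjusted p = 1.2e-04, 3.2e-05, 0.0024 and 0.0096). Tgfb1 and Tgfb3, whose latent forms are held for release by alpha v integrins, fell by 0.59 and 0.85. Vtn, the vitronectin gene, was listed at 0 in all libraries, and Npnt, the nephronectin gene and ligand of alpha 8, stood at 0.794 and 0.569 TPM in DOX cultures and at 1.15 and 0.797 TPM in control cultures, below the level of testing.

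Inside the cell, the adhesion complex that binds integrin tails was called at shares near those of all genes tested, 29.0% higher and 35.4% lower. Of its 30 tested genes, 8 were higher and 12 lower (median log2 fold change -0.12), and 5 were higher without DOX replicate 1 or without control replicate 2. Tln1, the talin that switches integrins on, fell by 0.29 on the log2 scale (limma adjusted p = 0.0046), and Fermt2, the kindlin that acts beside it, stood at 46.7 and 44.6 TPM in DOX cultures and at 43.7 and 44.3 TPM in control cultures (log2 fold change 0.05, limma adjusted p = 0.52). Parvb, a parvin that ties integrins to actin, stood at 61.8 and 56.8 TPM in DOX cultures, against 140 and 141 TPM in control cultures (log2 fold change -1.23, limma adjusted p = 4.7e-07). Arhgef6, a Rac exchange factor that binds parvin, fell by 1.68, and the tensins Tns1 and Tns2 fell by 0.84 and 1.13. Lims1, the adaptor PINCH1, rose, with 124 and 141 TPM in DOX cultures, against 82.2 and 88.3 TPM in control cultures.

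Of the regulators of integrin activity and traffic, 5 of 17 tested genes were higher and 5 lower (median log2 fold change -0.10). The count of higher genes was 3 without DOX replicate 1, DOX replicate 2 or control replicate 1, and 2 without control replicate 2, with no filter or without a variance trend, and 3 were lower without DOX replicate 2. Over all genes tested 29.0% were higher and 35.4% lower, so this list did not stand above the background. Dab2, an endocytic adaptor for beta 1 integrins, stood at 38.0 and 33.8 TPM in DOX cultures, against 236 and 250.0 TPM in control cultures (log2 fold change -2.73, limma adjusted p = 1.2e-08). Rab11a, a GTPase of the recycling route that returns integrins to the surface, fell by 0.47 on the log2 scale. Itgb1bp1, also named ICAP1, which binds the beta 1 tail and holds it inactive, stood at 122 and 139 TPM in DOX cultures, against 84.9 and 91.5 TPM in control cultures (log2 fold change 0.56, limma adjusted p = 1.7e-04). The adaptor and the recycling GTPase were thus lower while the beta 1 tail binder was higher. Itgb1bp2, the muscle protein melusin, fell by 0.51, a call lost without DOX replicate 2 (adjusted p = 0.27), without control replicate 1 (0.10) or 2 (0.13), with no filter (0.078) and under quantile normalization (0.48).

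**Figure D4:**
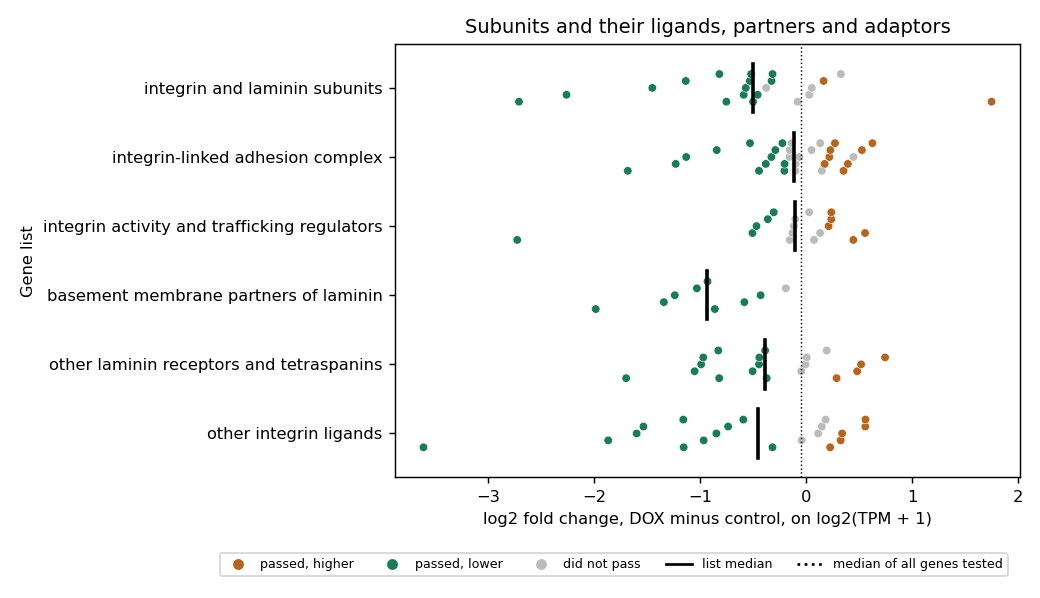
Log2 fold change, DOX minus control, on the log2(TPM + 1) scale (horizontal axis) of each tested gene, as 1 point, in the subunit set and 5 lists of ligands, partners and adaptors (vertical axis), with a bar at each list's median and a dotted line at the median of all genes tested. The basement membrane partners have the lowest median, -0.93, and the adhesion complex lies near the median of all genes, at -0.12.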

How the data were processed

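Polyadenylated RNA of 4 MC38 cultures was sequenced. Per the labels' protocols, TRIzol lysates were column-purified before an mRNA library kit for Illumina was applied. Both TPM and FPKM values were deposited by the authors, as their file headers name them, and a library's TPM were 3.08 to 3.14 times its FPKM. The submitters' processing notes name build mm39; aligner, quantifier, annotation and strand setting are not given there or in the labels. Groups came from the sample titles.

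In R 4.3.3 with limma 3.58.1 (lmFit, eBayes with a mean-variance trend, no covariate), log2(TPM + 1) was tested for genes averaging 1 TPM or more, with Benjamini-Hochberg adjustment over all of them; fold changes on this scale understate low genes. Sums and shares are of TPM, computed with pandas 2.3.3. Exon overlaps, their shared bases and the transcript matches came from GENCODE M21, on an earlier build than mm39. Start-site sequences are from RefSeq, GRCm38.p6. The fit was tested on simulated data. Counts and medians cover every subunit gene, but 1 that was tested, with no call, is not reported here by name; from each list, up to 4 genes that passed with the largest change are named, with ligands or partners of a described subunit and, chosen after their values were seen, Tln1, Fermt2, Lims1, Agrn, Hspg2, Nid1, Cd151, Dag1 and Dst. Members and lists were chosen with earlier results of these data known. Alternatives were other pseudocounts, filters, scalings and variance models, the FPKM table, blocking by replicate number, and omission of single replicates.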

Additional observations from a re-analysis of the deposited data

How the results depend on the processing

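Of 21 tested subunits, 10 kept their call and direction in each of the 14 alternatives that tested them: Lama4, Itga8, Itgb8, Itgb2, Lamb1, Lamb2, Itgav, Itga5, Itga6 and Itgad. Of these, Lama4, Itga8 and Itgad reached the mean of 1 TPM through 1 group only, so their calls could hardly have been otherwise. With a mean of at least 5 TPM, which tests fewer genes, 8 subunits were lower and 1 higher, of which 6 and 1 were integrins. Lama4, Itga8, Itgad, Itgb8 and Itgb2 were too low to be tested there. Quantile normalization left 9 lower, 6 of them integrins; the cause was not tested. It turned the direction of Lamc1 (-0.01993), Itgb1 (-0.05025) and the summed integrin beta level (log2 ratio -0.01078, against 0.106 under median-of-ratios scaling), and put the summed laminin alpha level at -3.095 on the log2 scale. Leaving out 1 replicate gave 12 to 13 subunits lower and 1 to 2 higher, or 9 to 10 and 1 to 2 integrins; Itgb1 then ranged from -0.00191 to 0.062, below 0 without DOX replicate 1. In the adhesion complex 5 to 8 genes were then higher, among regulators 2 to 3 higher and 3 to 5 lower, and among other ligands 3 to 6 higher. With no filter, 2 regulators and 3 ligands were higher, and without a variance trend 2 regulators.

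The titles use cell numbers 1 and 2 in each group, with no word on what a shared number means. Deviations of same-numbered libraries correlated at -0.0053 over 11359 genes, and a replicate block again gave 14 subunits lower and 2 higher. Median-of-ratios scaling moved the split over all genes to 3649 higher and 3674 lower, and quantile normalization to 3870 and 3356, against 3295 and 4017 as deposited. Without counts, values below 1 TPM have no counting interval.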
